A study of Rattus norvegicus with 16 samples.

Results

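The comparison described here is that of the diabetic nephropathy (DN) kidney with the normal kidney, taken across all genes in 8 rats, 4 in the DN group and 4 in the normal group, of 16 rats in the series. The members were the libraries that the sample records place in these groups. The other 8 rats were DN rats treated with sinomenine (SIN), 4 of them at 20 mg/kg and 4 at 40 mg/kg. The SIN-treated rats enter only where their values are given, and each range given for them covers both doses. All rats were male Sprague-Dawley rats of 6 to 8 weeks at the start. The DN rats received streptozotocin (STZ), a toxin of the insulin-producing beta cell, at 45 mg/kg together with a diet rich in glucose and fat, were kept when their blood glucose was over 16.7 mmol/L, and were then given vehicle by gavage for 8 weeks. The normal rats received citrate buffer and a normal diet. STZ, diet and the resulting diabetes came together, so their parts cannot be told apart. Because STZ destroys beta cells, a lack of insulin is part of this model. The kidneys were taken as whole renal tissue, so fewer cells of a type and less RNA in each cell cannot be told apart. The time of day at which they were collected is not given in the sources used here.

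In the kidney, blood is filtered through the glomerulus, a tuft of capillaries covered by podocytes, and the proximal tubule takes back glucose, amino acids, phosphate and bicarbonate from the filtrate. The proximal tubule also makes glucose and ammonia, burns fatty acids and secretes drugs and organic acids. In diabetes it is exposed to a high load of filtered glucose, and diabetic nephropathy is known for thickened basement membranes, expansion of the matrix and tubular injury.

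Each rat had 19616312 to 23054805 estimated counts in all. Levels are given as CPM, a count of a gene relative to the TMM-adjusted total of its library. Over the genes tested, Spearman correlations between rats were 0.968 to 0.986 within a group and 0.948 to 0.974 between the groups. Genes are not independent replicates, so these values carry no test. Serial numbers of the libraries run on within each group, and a batch, if there was one, cannot be told apart from the condition. DN rat 3 stood apart in transcripts of smooth muscle and urothelium. Actg2, a smooth muscle actin, was at 101 CPM in this rat and between 1.24 and 2.74 CPM in the other DN rats, and the sum of 4 uroplakins, proteins of the urothelial surface, was 102 CPM against 1.42 to 9.86 CPM. Normal rat 1 had a uroplakin sum of 52.6 CPM, against 3.82 to 9.09 CPM in the other normal rats. The lists of muscle, urothelial and stromal markers are given with and without DN rat 3, as are some single genes.

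The question was how the untreated DN kidney differs from the normal kidney. The difference was broad, with more large decreases than large increases. edgeR's quasi-likelihood test was applied to 15775 genes, and 3074 of them (19.5%) were called, which means an adjusted p under 0.05. Of these, 1378 genes (8.74%) were higher in the DN group and 1696 genes (10.8%) were lower. A DEG was defined as a called gene that differed by 1 or more on the log2 scale, and 599 genes (3.8%) met this definition. Only 164 DEGs (1.04%) were higher and 435 DEGs (2.76%) were lower in the DN group. At 4-fold or more, 21 called genes were higher and 123 were lower. The median log2 fold change of all genes was 0.00, and the median size among called genes was 0.61. Every DN rat was above every normal rat in 1759 genes (11.2%) and below every normal rat in 2071 genes (13.1%), and 531 of the 599 DEGs were among these genes. Among the 200 genes with the most counts, 33 were called higher and 17 lower.

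**Figure D1:**
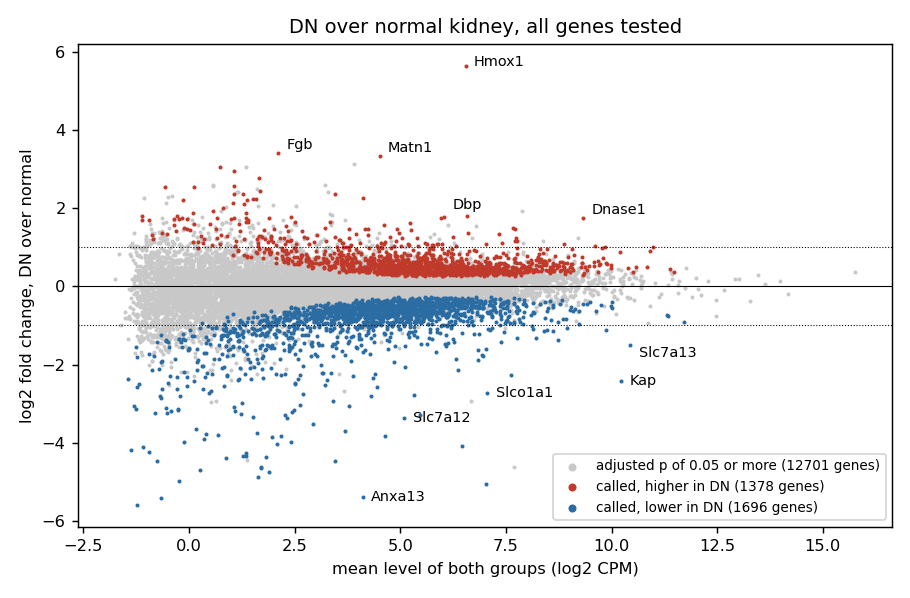
Each point is 1 of 15775 genes, with its mean level in both groups (log2 CPM) on the horizontal axis and its log2 fold change of DN over normal on the vertical axis. Red points are the 1378 genes called higher and blue points the 1696 genes called lower in the DN group, grey points are not called, and dotted lines mark a log2 fold change of 1 in either direction. Below the lower line lie 435 DEGs and above the upper line 164.

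The number of calls depended on single rats. Without DN rat 3, 2586 of 15966 genes (16.2%) were called, and 2303 of them were calls of the full comparison. The number fell to 769 without normal rat 4, 987 without normal rat 3, 1308 without DN rat 2, 1602 without DN rat 1 and 1622 without normal rat 1. The number of DEGs was 306 without normal rat 4, 341 without normal rat 3 and 381 without DN rat 2. In all, 697 called genes (22.7%) and 274 DEGs (45.7%) were also called with any 1 of the 8 rats left out. For each gene below that lost its call in some of these 8 fits, the number of fits that called it is given. Calls in the gene lists below are counted in the same fits. A fall in a list is to be read beside this fall over all genes. Across the called genes described here, calls were lost most often without normal rat 4 (88 genes) and without normal rat 3 (79 genes).

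Gene length moved with the group. Relative to the normal group, the median log2 level of the 5258 longest genes minus that of the 5259 shortest was -0.07 to 0.04 in the normal rats and -0.30 to -0.08 in the DN rats, with DN rat 4 the lowest. Of the longest genes 6.18% were called higher and 16.1% lower, and of the shortest 10.7% were called higher and 6.5% lower. When the trend of each library on gene length was removed, a step chosen after the data were seen, 1832 genes were higher and 1260 lower, so that 59.2% of calls were higher in place of 44.8%. This step shifted the median of all genes to 0.06. Of the called genes described here 16 lost their call under it, all of them lower in the DN group, namely Slc5a8, Slc4a4, Casr, Atp6v1b1, Lama2, Tgfbr1, Atp6ap2, Igfbp3, Fkbp5, Mki67, Hsp90b1, Canx, Socs5, Ptprc, Cxcl12 and Pdgfra.

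Genes named for the largest changes or the smallest p were taken only from DEGs whose groups did not overlap. Their lack of overlap is thus part of that choice and no added support. Several genes of the normal kidney fell to a small part of their level in the DN kidney. Anxa13 (ENSRNOG00000007980) encodes an annexin, a calcium-dependent membrane-binding protein of epithelia. It was at 29.4, 24.2, 47.5 and 34.0 CPM in the normal rats and at 1.11, 0.354, 0.492 and 1.24 CPM in the DN rats. All DN rats were far below all normal rats, with a log2 fold change of -5.38 (SE, the standard error, 0.37, adjusted p = 0.000473). In the 8 SIN-treated rats, which had the same STZ and diet, Anxa13 was at 0.141 to 0.861 CPM.

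The amino acid transporter Slc7a12 (ENSRNOG00000033830) was at 68.7, 43.6, 63.0 and 73.6 CPM in the normal rats and at 6.77, 3.94, 6.93 and 6.29 CPM in the DN rats. Its log2 fold change was -3.37 (SE 0.22, adjusted p = 0.000473), and the groups were far apart. The related Slc7a13 (ENSRNOG00000024903), a transporter of acidic amino acids and cystine in the straight part of the proximal tubule, was at 1850, 2090, 2122 and 2207 CPM in the normal rats and at 716, 839, 593 and 751 CPM in the DN rats. Slc7a13 fell with a log2 fold change of -1.51 (SE 0.13, adjusted p = 0.00113). Slco1a1 (ENSRNOG00000036984), an uptake transporter of organic anions such as steroid conjugates and bile acids, was at 196, 205, 268 and 261 CPM in the normal rats and at 25.8, 21.5, 46.0 and 46.2 CPM in the DN rats. The groups did not overlap, and its log2 fold change was -2.73 (SE 0.27, adjusted p = 0.00169).

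Kap, the kidney androgen-regulated protein, was chosen after its values were seen, because it was among the genes with the most counts. It was at 2076, 1426, 2212 and 2389 CPM in the normal rats and at 250, 553, 203 and 506 CPM in the DN rats. It fell in all DN rats, with a log2 fold change of -2.42 (SE 0.33, adjusted p = 0.0043). Chosen in the same way, Rgn, the calcium-binding regucalcin, fell from 324 ± 125 to 67.3 ± 36.5 CPM (mean ± SD, n = 4), and Hnmt, which methylates histamine, fell from 134 ± 38.1 to 30.4 ± 9.02 CPM (mean ± SD, n = 4). Their log2 fold changes were -2.26 for Rgn and -2.14 for Hnmt, and both were called with any rat left out.

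Other genes of the largest decreases were present at a few CPM in the normal kidney and at or near 0 in the DN kidney. The chloride channel Cftr was at 3 to 13.3 CPM in the normal rats and 0.0506 to 0.571 CPM in the DN rats (log2 fold change -4.36). Cyp8b1, the sterol 12-alpha-hydroxylase of bile acid synthesis, was at 3.21 to 6.34 CPM in the normal rats and 0 to 0.714 CPM in the DN rats (log2 fold change -4.34). Tcerg1l, Ptprq, Ccn6, Tcf24 and Atp1a4 had log2 fold changes between -4.26 and -3.80, and these 5 genes and the 2 before them were called with any rat left out. At these levels, values rest on few counts, and the fold changes are less certain than the direction. Serpinb12, a serine protease inhibitor, had a log2 fold change of -3.35 and was called in 7 of the 8 fits, with an adjusted p of 0.0507 without normal rat 4.

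Among the genes with the smallest p were several that fell with little spread between rats. Mpv17l, whose protein is found in mitochondria and peroxisomes, was at 240, 184, 170 and 164 CPM in the normal rats and at 51.6, 48.0, 59.7 and 65.4 CPM in the DN rats (log2 fold change -1.75, adjusted p = 0.00113). Pamr1 was at 36.0 to 42.1 CPM in the normal rats and 13.7 to 16.8 CPM in the DN rats (log2 fold change -1.29, adjusted p = 0.000697). Nkd2, an inhibitor of Wnt signalling, was at 39.8 to 53.5 CPM in the normal rats and 7.64 to 15.3 CPM in the DN rats (log2 fold change -1.94, adjusted p = 0.00242). In each of these the groups were far apart. Fat3, a large cadherin, had a log2 fold change of -1.73 and Basp1 one of -1.33. Slc25a25, a mitochondrial carrier of ATP-Mg and phosphate, was at 121 to 222 CPM in the normal rats and 49.8 to 65.7 CPM in the DN rats (log2 fold change -1.63, adjusted p = 0.00265). Across both doses, the SIN-treated rats ranged from 31.5 to 199 CPM for Slc25a25 and so overlapped both groups. A difference between the doses was not tested.

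The largest increases were smaller in level. Fgb, the fibrinogen beta chain, was at 0.978, 1.06, 0.263 and 0.667 CPM in the normal rats and at 4.91, 5.11, 13 and 8.71 CPM in the DN rats. It rose with a log2 fold change of 3.42 (SE 0.46, adjusted p = 0.00421) and without overlap. Matn1, a matrilin of the extracellular matrix, was at 8.38, 3.05, 1.54 and 3.33 CPM in the normal rats and at 82.8, 49.2, 16.8 and 17.2 CPM in the DN rats. The lowest DN rat was above the highest normal rat, although the DN rats differed by several fold among themselves (log2 fold change 3.35, SE 0.64, adjusted p = 0.0119).

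Hmox1, heme oxygenase, had the largest log2 fold change of the named genes that rose, 5.64, and that value rested on 1 rat. It was at 707 CPM in DN rat 1, at 8.19, 11.3 and 5.57 CPM in the other DN rats and at 2.56, 4.84, 3.20 and 4.09 CPM in the normal rats. Without DN rat 1 the log2 fold change was 1.19 (adjusted p = 0.0385). It was called in 4 of the 8 fits, and leaving out any normal rat ended the call, with an adjusted p of 0.0679 to 0.107. No SIN-treated rat exceeded 9.74 CPM.

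Serpina4, the kallikrein inhibitor kallistatin, was at 1.12, 0.774, 0.132 and 0.712 CPM in the normal rats and at 3.76, 2.83, 2.73 and 4.71 CPM in the DN rats (log2 fold change 2.36, adjusted p = 0.0147, 7 of the 8 fits). Ly6al rose from 6.02 ± 1.86 to 28.8 ± 8.37 CPM (mean ± SD, n = 4, log2 fold change 2.26). Apba2, an adaptor protein known from neurons, had a log2 fold change of 3.04. Cidea, a protein of lipid droplets, had 2.37, Aldoc, the brain form of aldolase, 2.21 and Spetex-2F 2.21. Lack of overlap between the groups was a condition for naming these genes. All but Serpina4, whose adjusted p was 0.0507 without normal rat 4, were called with any rat left out.

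Baat, which joins bile acids to glycine and taurine, divided the DN group. It was at 5.44 and 8.95 CPM in DN rats 1 and 2, at 32.2 and 27.1 CPM in DN rats 3 and 4 and at 2.85 to 3.91 CPM in the normal rats. All DN rats were above all normal rats, with a log2 fold change of 2.37 (adjusted p = 0.0171), called in 6 of the 8 fits and not without normal rat 3 (adjusted p = 0.0517) or normal rat 4 (adjusted p = 0.0585). Cyp24a1, which degrades active vitamin D and was chosen after its values were seen, showed a similar split. It was at 60.9 and 118 CPM in DN rats 1 and 2, at 547 and 772 CPM in DN rats 3 and 4 and at 87.4 to 121 CPM in the normal rats, and it was not called (adjusted p = 0.0667). Xkr8 was called in 5 of the 8 fits (log2 fold change 2.13), and Nkpd1 in 3 of them (log2 fold change 2.57).

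Other genes with a high number of counts moved as well. Dnase1, an endonuclease, was at 182, 357, 282 and 360 CPM in the normal rats and at 1414, 758, 850 and 951 CPM in the DN rats (log2 fold change 1.75, adjusted p = 0.0048). Aadat, an aminotransferase of tryptophan and lysine breakdown, rose from 1343 ± 235 to 2671 ± 409 CPM (mean ± SD, n = 4, log2 fold change 0.99). Hao2, a peroxisomal hydroxyacid oxidase, fell from 4364 ± 936 to 2330 ± 615 CPM (mean ± SD, n = 4, log2 fold change -0.90) and was called in 4 of the 8 fits. Nrg1 and Chchd6, which lay at much lower levels, were named for their small p. Nrg1, the growth factor neuregulin, rose with a log2 fold change of 1.23 (adjusted p = 0.00265). Chchd6, a protein of the mitochondrial inner membrane, rose with one of 1.24 (adjusted p = 0.00156).

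**Figure D2:**
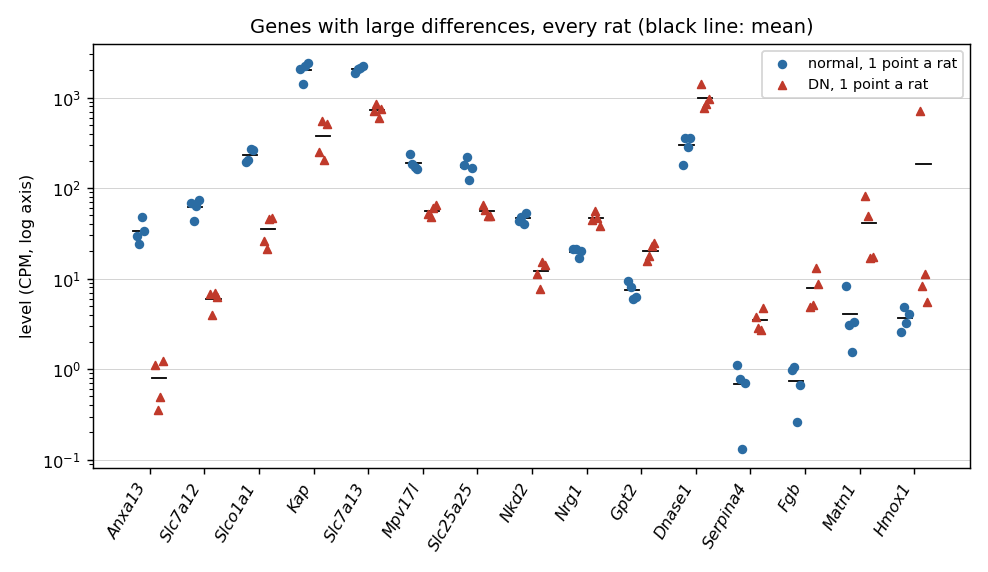
Levels in every rat (CPM, log axis) of 15 genes with large differences. Blue circles are the 4 normal rats, red triangles the 4 DN rats and black lines the group means. Anxa13 lies at 24.2 to 47.5 CPM in the normal rats and at 0.354 to 1.24 CPM in the DN rats, and the mean of Hmox1 in the DN group is set by 1 rat at 707 CPM.

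The gene lists below were chosen with earlier results of these data known, so their shares beside that of all genes are descriptive only. Transporters of the proximal tubule moved in both directions. Of 32 tested marker genes of this segment, 4 were higher and 5 lower (28.1% called, beside 19.5% of all genes), with a median log2 fold change of 0.00, and without DN rat 3 there were 2 higher and 4 lower. With 1 rat left out the number of calls was between 3, without normal rat 4, and 8. The summed level of the list was 20790 to 27500 CPM in the normal rats and 18290 to 24860 CPM in the DN rats. Slc5a10, a sodium-coupled transporter of mannose and fructose, was at 107, 152, 81.1 and 110 CPM in the normal rats and at 284, 370, 298 and 280 CPM in the DN rats. It rose without overlap, with a log2 fold change of 1.46 (SE 0.18, adjusted p = 0.00324). The uric acid transporter Slc22a12 rose with 0.41 (called in 2 of the 8 fits), the organic anion transporter Slc17a3 with 0.53 (4 fits) and the glucose transporter Slc5a1 with 0.50 (1 fit).

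Beside Slc7a13 and Slco1a1, the transporters that fell were Slc22a2, which takes up organic cations, with a log2 fold change of -0.64 (called in 3 of the 8 fits), Slc5a8, a monocarboxylate transporter, with -0.85 (3 fits), and the bicarbonate exporter Slc4a4 with -0.92 (1 fit). Slc5a2, the main glucose transporter of the early proximal tubule and a drug target in diabetes, was at 300 to 433 CPM in the normal rats and 129 to 357 CPM in the DN rats. The groups overlapped, and Slc5a2 was not called (log2 fold change -0.52, adjusted p = 0.184). Slc2a2, the basolateral glucose transporter, was at 77.2 to 107 CPM in the normal rats and 95.6 to 220 CPM in the DN rats (adjusted p = 0.0706). Megalin, encoded by Lrp2, had a log2 fold change of -0.27 (adjusted p = 0.224). Slc5a2, Slc2a2 and Lrp2 were named for their known roles, outside the rule for named genes.

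Among all 290 solute carriers tested, 28 were higher and 42 lower (24.1% called, beside 19.5% of all genes). With the length trend removed 35 were called higher and 30 lower, so the split of calls depended on that step. The median log2 fold change of the family was 0.075 in the main fit and 0.129 with the trend removed. Between 25 (without normal rat 4) and 80 solute carriers were called when 1 rat was left out. The carriers named next were chosen after their values were seen. Slc16a1, which carries lactate and pyruvate, was at 159 to 250 CPM in the normal rats and 48.0 to 84.4 CPM in the DN rats (log2 fold change -1.61, adjusted p = 0.00324). Slc16a4 had a log2 fold change of -1.79 and Slc16a14 one of -1.42, and all of these monocarboxylate carriers were called with any rat left out. The citrate transporter Slc13a5 rose with a log2 fold change of 1.93 (5 of the 8 fits). Of 37 ABC transporters 8 were higher (21.6%) and 3 lower (8.11%), beside 8.74% and 10.8% of all genes, and without normal rat 4 there were 4 calls. The phospholipid exporter Abcb4 rose from 20.6 ± 2.33 to 56.3 ± 19.5 CPM (mean ± SD, n = 4, log2 fold change 1.45, adjusted p = 0.00523). The bile acid carriers Abcb11 (log2 fold change 1.64, 4 of the 8 fits) and Slc51a (log2 fold change 1.75, 6 of the 8 fits) were highest in DN rat 4.

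Markers of the segments after the proximal tubule were called at shares between 7.14% and 21.4%, beside 19.5% of all genes. Of 15 markers of the loop of Henle and thick ascending limb, 0 were higher and 3 lower (20% called), and without normal rat 4 there was 1 call. Egf, the epidermal growth factor made in this segment, was at 1405, 1523, 1098 and 1105 CPM in the normal rats and at 750, 502, 515 and 586 CPM in the DN rats. It fell without overlap, with a log2 fold change of -1.12 (SE 0.17, adjusted p = 0.00524). Umod, which encodes uromodulin, the most abundant protein of normal urine, was at 2921 to 3596 CPM in the normal rats and 1509 to 2302 CPM in the DN rats (log2 fold change -0.77, adjusted p = 0.0154, 7 of the 8 fits), with an adjusted p of 0.0534 without normal rat 4. The calcium receptor Casr had a log2 fold change of -0.34 (3 of the 8 fits), which was -0.21 with the length trend removed (adjusted p = 0.105).

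Of 14 intercalated cell markers, 0 were higher and 3 lower (21.4% called), namely the proton pump subunits Atp6v1b1 (log2 fold change -0.47) and Atp6v0d2 (-0.95) and the anion exchanger Slc26a4, pendrin (-0.89). These were called in 5, 4 and 4 of the 8 fits. Of 14 principal cell markers only Scnn1a, a subunit of the epithelial sodium channel, was called (7.14%), higher with a log2 fold change of 0.69 (6 of the 8 fits). Aqp2, the vasopressin-regulated water channel, was at 139 to 590 CPM in the normal rats and at 1048, 1266, 604 and 399 CPM in the DN rats. The groups overlapped, and Aqp2 was not called (log2 fold change 1.23, adjusted p = 0.076). Of 14 genes of the distal convoluted and connecting tubule, Wnk4 was higher (log2 fold change 0.63, 2 of the 8 fits) and Trpm7 lower (-0.88, 6 fits), which is 14.3% called. When 1 rat was left out, between 0 and 4 intercalated, 0 and 5 principal and 0 and 4 distal tubule markers were called, with 0 of each without normal rat 4 and the most without DN rat 4.

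In the glomerulus, 0 of 17 podocyte genes were higher and 2 were lower (11.8% called, beside 19.5% of all genes), with a median log2 fold change of -0.31. Npnt, the integrin ligand nephronectin, fell from 48.7 ± 3.67 to 35.1 ± 2.62 CPM (mean ± SD, n = 4, log2 fold change -0.47, adjusted p = 0.0139) and was called with any rat left out. Cd2ap, an adaptor of the slit diaphragm, was called in 1 of the 8 fits. The slit diaphragm gene Nphs1 was not called, with a log2 fold change of -0.44 (adjusted p = 0.297). Nphs1 was at 45.6 to 65.8 CPM in the normal rats and at 22.6, 26.4, 43.5 and 62.0 CPM in the DN rats, a range that covered most of the normal one. Both lists had between 1 and 3 calls with 1 rat left out, with 1 without normal rat 1, 3 or 4 or DN rat 1. Of 15 genes of the glomerular endothelium 2 were higher (13.3% called). Esam, an adhesion molecule of endothelial junctions, was at 28.2, 43.6, 38.4 and 34.7 CPM in the normal rats and at 85.9, 63.5, 71.1 and 73.1 CPM in the DN rats. It rose without overlap (log2 fold change 1.02, adjusted p = 0.00457), and the TGF-beta co-receptor Eng rose with 0.57 (4 of the 8 fits).

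The basement membrane thickens in diabetic nephropathy. Of 18 of its genes tested, 1 was higher and 4 were lower (27.8% called, beside 19.5% of all genes), with a median log2 fold change of 0.14. Col4a3 and Col4a4, the collagen IV chains of the mature glomerular basement membrane, both fell. Col4a4 was at 646, 490, 543 and 534 CPM in the normal rats and at 256, 295, 354 and 274 CPM in the DN rats (log2 fold change -0.91, adjusted p = 0.00497). Col4a3 was at 196 to 219 CPM in the normal rats and 94.8 to 150 CPM in the DN rats (log2 fold change -0.77, adjusted p = 0.00876). Nid1, the linker nidogen, fell with a log2 fold change of -0.89 and the laminin chain Lama2 with -0.55 (6 of the 8 fits), while Nid2 rose with 0.52 (4 fits). These are long genes, and with the length trend removed Col4a3, Col4a4 and Nid1 remained called, with log2 fold changes of -0.58, -0.74 and -0.71, while Lama2 was not (adjusted p = 0.143). The list then had 5 genes called higher and 3 lower, so the split of its calls depended on that step. Its median log2 fold change was then 0.30 and so was positive in both fits. Leaving out 1 rat gave it between 3 calls, without normal rat 3 or DN rat 2, and 7.

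In the list of interstitial collagens and TGF-beta signalling, 4 of 29 genes were higher and 1 lower (17.2% called, beside 19.5% of all genes). Tagln, a marker of contractile cells, was at 62.2, 37.6, 38.9 and 30.9 CPM in the normal rats and at 166, 118, 214 and 92.7 CPM in the DN rats (log2 fold change 1.81, adjusted p = 0.0064). The highest DN value was that of rat 3, and without it the log2 fold change was 1.57 (adjusted p = 0.0135). Col1a1, a chain of collagen I, was at 26.2 to 60.7 CPM in the normal rats and 57.9 to 111 CPM in the DN rats, again highest in rat 3 (4 of the 8 fits), and without that rat it was not called (log2 fold change 0.93, adjusted p = 0.0531). Tgfbi had a log2 fold change of 0.53 (5 of the 8 fits) and Tgfb1 one of 0.51 (2 fits), while the receptor Tgfbr1 fell with -0.66 (4 fits). Fibronectin, Fn1, was at 114 to 184 CPM in the normal rats and 89.0 to 285 CPM in the DN rats and was not called (adjusted p = 0.412). Leaving out 1 rat gave this list between 1 call, without normal rat 3 or 4 or DN rat 2, and 7.

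Of 21 genes known as markers of tubular injury, 7 were higher and 2 lower (42.9% called, beside 19.5% of all genes), with a median log2 fold change of 0.76. Without DN rat 3 the counts were 7 and 2 as well, and with 1 rat left out the number of calls was 5 to 12, fewest without normal rat 4. Beside Fgb, the fibrinogen chain Fga was at 12.9, 15.7, 13.9 and 17 CPM in the normal rats and at 22.4, 27.1, 27.1 and 27.9 CPM in the DN rats (log2 fold change 0.82, adjusted p = 0.00537). Krt8, a keratin of simple epithelia, was at 130 to 181 CPM in the normal rats and 236 to 331 CPM in the DN rats (log2 fold change 0.83, adjusted p = 0.00734). Havcr1, known as kidney injury molecule 1, was at 0.838, 2.27, 0.395 and 0.756 CPM in the normal rats and at 4.34, 6.98, 2.01 and 6.57 CPM in the DN rats. One DN rat was below one normal rat, and the log2 fold change of 2.23 (adjusted p = 0.0244) was called in 4 of the 8 fits. Clu, Vim and Krt18 rose with log2 fold changes of 1.17, 0.46 and 0.70 and were called in 5, 7 and 3 of these fits. Without DN rat 3, Clu had a log2 fold change of 0.92 (adjusted p = 0.049) and Krt18 was not called (adjusted p = 0.0685).

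Lcn2, the neutrophil lipocalin, was not called (adjusted p = 0.147), and its DN values of 14.1, 11.3, 4.47 and 1.81 CPM lay above, within and below the normal range. The adhesion molecule Vcam1, which marks failed repair of tubules, went the other way. It was at 23.1 to 34.2 CPM in the normal rats and 12.8 to 15.7 CPM in the DN rats (log2 fold change -0.98, adjusted p = 0.00457). Cp, which encodes ceruloplasmin, also fell, with a log2 fold change of -0.98 (adjusted p = 0.00542). Both Vcam1 and Cp were called with any rat left out.

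Of 19 genes of glucose and ammonia production tested, 8 were higher, 0 were lower and 11 were not called (42.1% called, beside 19.5% of all genes), and with 1 rat left out between 3 (without normal rat 3 or normal rat 4) and 9 were called. Gpt2, a mitochondrial transaminase of alanine and pyruvate, was at 9.31, 8.04, 6.01 and 6.32 CPM in the normal rats and at 15.8, 17.8, 23.1 and 24.7 CPM in the DN rats. All DN rats were above all normal rats. Pck2, the mitochondrial phosphoenolpyruvate carboxykinase, was at 15.3 to 19.6 CPM in the normal rats and 25.4 to 30.0 CPM in the DN rats (log2 fold change 0.67, adjusted p = 0.00669). The glucose-6-phosphatase isoform G6pc3 rose with a log2 fold change of 0.79 (adjusted p = 0.00876). Got2, Mdh2 and Gpt rose with 0.50, 0.43 and 0.92, each called in 5 of the 8 fits. Pck1, the cytosolic carboxykinase, was at 9490, 7229, 5920 and 5774 CPM in the normal rats and at 3037, 3501, 4411 and 5852 CPM in the DN rats. The groups overlapped in 1 rat, and Pck1 missed the threshold (log2 fold change -0.75, adjusted p = 0.0501). G6pc, the glucose-6-phosphatase of liver and kidney, was at 734 to 1101 CPM in the normal rats and 337 to 819 CPM in the DN rats (log2 fold change -0.68, adjusted p = 0.0941).

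Of 25 genes of glycolysis, the polyol pathway and fructose use, 6 were higher and 1 lower (28% called, beside 19.5% of all genes). Aldoa, the muscle form of aldolase, was at 754 to 959 CPM in the normal rats and 1249 to 1850 CPM in the DN rats (log2 fold change 0.87, adjusted p = 0.00829). Eno2, Pfkl, Ldha and Sord, the sorbitol dehydrogenase of the polyol pathway, rose with log2 fold changes of 1.25, 0.65, 0.63 and 0.54 and were called in 4, 3, 2 and 3 of the 8 fits. Pklr, the pyruvate kinase of liver and kidney, was the gene that fell, from 269 ± 36.0 to 142 ± 25.1 CPM (mean ± SD, n = 4, log2 fold change -0.92, adjusted p = 0.00598). With 1 rat left out the list had 3 to 8 calls, fewest without normal rat 3 or DN rat 2. Gys1, the glycogen synthase of non-hepatic tissue, rose with a log2 fold change of 0.86 (adjusted p = 0.0102).

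Of 31 genes of fatty acid oxidation and targets of PPAR-alpha, a receptor for fatty acids, 2 were higher and 4 lower (19.4% called, beside 19.5% of all genes). Angptl4, an inhibitor of lipoprotein lipase, was at 18.9, 21.7, 19.6 and 19.6 CPM in the normal rats and at 6.33, 8.65, 4.56 and 4.24 CPM in the DN rats (log2 fold change -1.75, adjusted p = 0.00324). Pdk4, which restrains the entry of pyruvate into the citric acid cycle, was at 18.5 to 29.1 CPM in the normal rats and 4.86 to 12.7 CPM in the DN rats (log2 fold change -1.35, adjusted p = 0.0135). Both are known to rise with fasting and fatty acids, and both fell here in every DN rat. The oxidation enzymes Acadm and Acaa2 fell with -0.58 and -0.52 (3 and 2 of the 8 fits), while Cyp4a8, a fatty acid hydroxylase, rose from 673 ± 95.0 to 1112 ± 137 CPM (mean ± SD, n = 4, log2 fold change 0.73) and Acaa1a rose with 0.61 (3 fits). With 1 rat left out the list had 3 to 7 calls, fewest without normal rat 1 or 4 or DN rat 2.

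In sterol and fatty acid synthesis, 3 of 29 genes were higher and 2 lower (17.2% called), and there were between 2 (without normal rat 1, 3 or 4 or DN rat 1) and 8 calls when 1 rat was left out, the most without DN rat 3. Srebf1, the master regulator of fatty acid synthesis, was at 31.2 to 40.2 CPM in the normal rats and 57.0 to 101 CPM in the DN rats (log2 fold change 1.05, adjusted p = 0.00886). Elovl6, an elongase that is a known target of Srebf1, moved in the opposite direction, with 2.37 to 6.18 CPM in the normal rats and 0.760 to 1.72 CPM in the DN rats (log2 fold change -1.85, adjusted p = 0.012). Dhcr7 and Mvk rose with log2 fold changes of 0.90 and 0.65 (4 and 2 of the 8 fits), and Stard4 fell with -0.64 (3 fits). Of 10 adipocyte markers 3 were higher and 0 lower (30% called, beside 19.5% of all genes), and there were 3 calls in every fit with 1 rat left out. The 3 called genes, Cidea, Cidec and Pparg, belong to lipid storage. Cidec was at 52.4 to 57.6 CPM in the normal rats and 72.1 to 118 CPM in the DN rats (log2 fold change 0.75, adjusted p = 0.00954), and the regulator Pparg was at 2.02 to 2.76 CPM in the normal rats and 3.95 to 6.73 CPM in the DN rats (log2 fold change 1.19, adjusted p = 0.0146). The adipocyte hormone gene Adipoq was at 5.93 to 11.8 CPM in the normal rats and 5.97 to 13 CPM in the DN rats, so the groups overlapped. DN rat 3 stood apart in other adipocyte markers, with Plin1 at 9.93 CPM against 0.0506 to 2.33 CPM and Cfd at 19.1 CPM against 0.8 to 6.24 CPM in the other rats. The median log2 fold change of the list was 0.50 with DN rat 3 and 0.05 without it.

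Of 27 antioxidant genes and targets of NRF2, 3 were higher and 0 lower (11.1% called, beside 19.5% of all genes). Nqo1, a quinone reductase, was at 7.64 to 11.4 CPM in the normal rats and 16 to 23.6 CPM in the DN rats (log2 fold change 1.07, adjusted p = 0.00667), and the metal-binding Mt1 rose from 302 ± 52.9 to 640 ± 120 CPM (mean ± SD, n = 4, log2 fold change 1.09). The other gene was Hmox1. Of 20 genes of drug metabolism, 4 were higher and 2 lower (30% called, beside 19.5% of all genes). Without normal rat 1, 3 or 4 or DN rat 2 or 3 there were 3 calls. Cyp2e1, a cytochrome P450 known to rise in untreated diabetes, was at 475 to 834 CPM in the normal rats and 1035 to 1279 CPM in the DN rats (log2 fold change 0.98, adjusted p = 0.0107). The epoxide hydrolase Ephx1 rose with a log2 fold change of 0.95 and the sulfotransferase Sult1c2 fell with -0.97. Cyp2c11, known as a male-specific cytochrome of rat liver, was at 31.9, 7.02, 34.7 and 24.7 CPM in the normal rats and at 1.20, 0.455, 1.39 and 8.71 CPM in the DN rats. The groups overlapped in 1 rat, and the log2 fold change of -3.06 (adjusted p = 0.0297) was called in 2 of the 8 fits.

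Nuclear genes of the mitochondrial respiratory chain formed the list with the largest share of calls, 15 of 30 higher and 1 lower (53.3% called, beside 19.5% of all genes), with changes of small size and a median log2 fold change of 0.31. Atp5mc1, a subunit of the ATP synthase ring, was at 243, 251, 207 and 222 CPM in the normal rats and at 414, 356, 300 and 391 CPM in the DN rats (log2 fold change 0.67, adjusted p = 0.00956). Uqcrc1 of complex III was at 375 to 464 CPM in the normal rats and 539 to 691 CPM in the DN rats (log2 fold change 0.56, adjusted p = 0.013). The complex I subunits Ndufs8 and Ndufv1 rose with 0.53 each (7 and 6 of the 8 fits). Cycs, which encodes cytochrome c, was the gene that fell (log2 fold change -0.83, 2 of the 8 fits). Without DN rat 3, 14 genes were higher and 0 lower. The number of calls fell to 2 without normal rat 4, 3 without normal rat 3 and 4 without DN rat 2. Over all genes the calls fell from 3074 to 769, 987 and 1308 in the same fits, in that order.

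Ribosomal protein genes moved upward as well. Of 71 genes of the cytosolic ribosome 32 were higher and 0 lower (45.1% called, beside 19.5% of all genes), and without normal rat 4 there were 14 calls. Rps2, for example, was at 558 to 752 CPM in the normal rats and 930 to 1057 CPM in the DN rats (log2 fold change 0.56, 7 of the 8 fits). Of 74 mitochondrial ribosomal genes 20 were higher and 0 lower (27% called), with 1 call without normal rat 4. Many of these genes are short. Of the 68 genes of the cytosolic ribosome that lie among the shortest genes, 45.6% were called higher, against 10.7% of all the shortest genes, and with the length trend removed 34 of the 71 were higher and 0 lower. Many genes of ribosomal proteins have processed copies that share their sequence, so their counts can be uncertain. Of 237 zinc finger genes 12 were higher and 41 lower (22.4% called, beside 19.5% of all genes), with 2 calls without normal rat 4. The share lower was 17.3%, beside 10.8% of all genes and 16.1% of the longest genes. With the length trend removed 17 were higher and 30 lower. The part of gene length in these differences was not tested beyond this step.

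The circadian clock is a loop in which Arntl (BMAL1), paired with Clock or Npas2, switches on the Per, Cry and Nr1d genes and the factors Dbp and Tef, whose products act back on the loop. Arntl is held down by Nr1d1 and driven by Rora. In the DN kidney the activators were lower and most of their known targets higher. Of 19 clock genes tested, 6 were higher and 4 lower (52.6% called, beside 19.5% of all genes). The same 10 genes were without overlap between the groups, beside 11.2% of all genes with DN higher and 13.1% with DN lower. As these are the called genes, this adds little to the calls. Npas2 was at 19.1, 19.5, 15.5 and 12.3 CPM in the normal rats and at 5.04, 5.16, 4.56 and 7.43 CPM in the DN rats (log2 fold change -1.58, SE 0.21, adjusted p = 0.00387). Arntl was at 39.7, 43.5, 37.2 and 32.8 CPM in the normal rats and at 17.4, 19.5, 10.2 and 20.1 CPM in the DN rats (log2 fold change -1.19, SE 0.20, adjusted p = 0.00738). Clock fell from 60.03 ± 10.9 to 33.5 ± 4.97 CPM (mean ± SD, n = 4, log2 fold change -0.84), and Rora fell with a log2 fold change of -0.78 (3 of the 8 fits).

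Dbp was at 20.2, 26.5, 28.3 and 44.2 CPM in the normal rats and at 72.6, 106, 143 and 85.2 CPM in the DN rats (log2 fold change 1.78, SE 0.27, adjusted p = 0.00524). Nr1d1 was at 34.9, 37.7, 30.8 and 36.2 CPM in the normal rats and at 51.1, 94.2, 72.9 and 74.1 CPM in the DN rats (log2 fold change 1.07, SE 0.16, adjusted p = 0.00551). Both rose in every DN rat. Per3 had a log2 fold change of 1 and was called with any rat left out, whereas Per2 (0.61), Cry2 (0.56) and Tef (0.50) were called in 5, 6 and 2 of the 8 fits. Per1, Cry1 and Nfil3 were not called, with adjusted p of 0.658, 0.261 and 0.312. DN rat 3 had the lowest Arntl and the highest Dbp, Per2, Per3, Cry2 and Tef of its group, and without it 5 genes were higher and 4 lower. With 1 rat left out the number of calls was 6 to 10, fewest without normal rat 3 or normal rat 4. These genes change over the day, and the hour of collection in each group was not tested here.

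To show the sequences in which clock factors are known to bind, the 250 bases before the transcription start were read from RefSeq for all 10 called genes, in 12 windows since Clock and Nr1d1 have more than one listed start. Searched on both strands were the E-box CACGTG, bound by Clock and Arntl and their relatives, the element TAGGTCA, bound by Nr1d1 and Rora, and the D-box TTATGNAA, bound by Dbp and Tef. Windows of this length hold the E-box in 5.59%, TAGGTCA in 2.26% and the D-box in 3.28% of 33469 RefSeq promoters (assembly GRCr8). A match was found in 4 of the 12 windows. The other 8, which are those of Npas2, Clock, Rora, Dbp, Per3 and Cry2 and that of the first start of Nr1d1, hold none. The 4 windows with a match are printed 5′ to 3′ along the strand of the gene, with the match in capitals, and in them no match overlapped another. Arntl is listed by RefSeq as Bmal1, and the window of Nr1d1 precedes the second of its listed starts. The positions are chr1:176766078-176766327 on the plus strand for Arntl, chr10:84229455-84229704 on the minus strand for Nr1d1, chr9:99496994-99497243 on the minus strand for Per2 and chr7:115206577-115206826 on the plus strand for Tef.
Arntl: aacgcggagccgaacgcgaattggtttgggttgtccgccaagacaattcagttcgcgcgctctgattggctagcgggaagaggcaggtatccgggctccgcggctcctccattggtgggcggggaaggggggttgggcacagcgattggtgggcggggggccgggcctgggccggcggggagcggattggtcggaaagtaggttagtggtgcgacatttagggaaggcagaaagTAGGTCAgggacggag
Nr1d1: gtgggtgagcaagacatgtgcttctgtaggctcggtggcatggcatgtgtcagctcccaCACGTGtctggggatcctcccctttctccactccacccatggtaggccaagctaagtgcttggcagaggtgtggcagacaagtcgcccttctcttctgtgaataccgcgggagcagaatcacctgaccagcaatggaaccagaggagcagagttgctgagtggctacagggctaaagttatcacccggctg
Per2: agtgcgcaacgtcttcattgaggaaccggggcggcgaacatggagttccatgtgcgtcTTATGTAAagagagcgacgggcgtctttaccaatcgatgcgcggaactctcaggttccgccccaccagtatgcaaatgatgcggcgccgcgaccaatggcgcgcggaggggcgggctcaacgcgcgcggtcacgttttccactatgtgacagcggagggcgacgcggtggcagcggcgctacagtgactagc
Tef: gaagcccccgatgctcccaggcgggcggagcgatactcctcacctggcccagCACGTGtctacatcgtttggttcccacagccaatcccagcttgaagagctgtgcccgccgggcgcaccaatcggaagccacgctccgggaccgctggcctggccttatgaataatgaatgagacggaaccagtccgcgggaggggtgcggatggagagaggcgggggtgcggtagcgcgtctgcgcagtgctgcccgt
A match of letters is not a measured binding site, and a window without one says nothing about binding elsewhere.

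**Figure D3:**
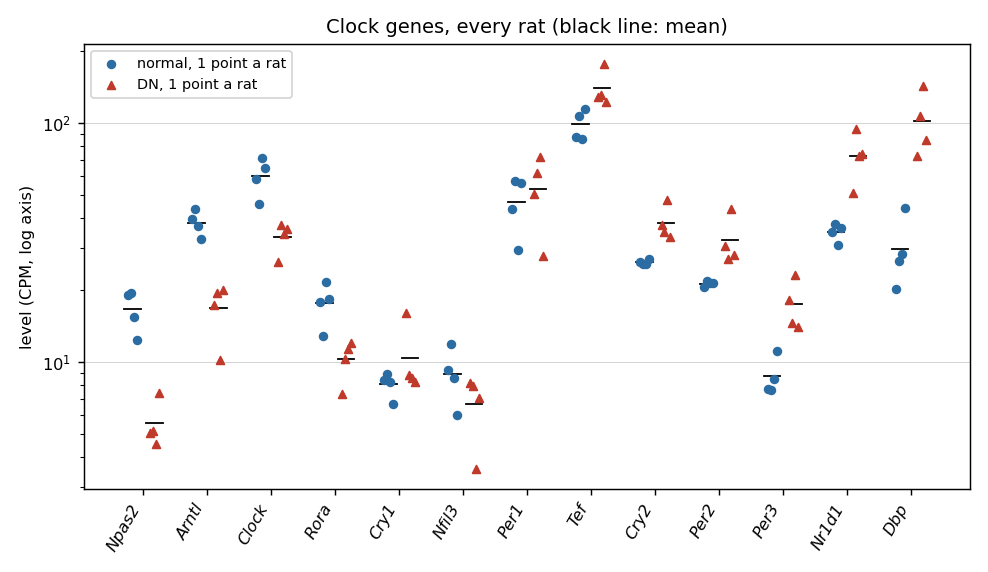
Levels in every rat (CPM, log axis) of 13 clock genes, with blue circles for the 4 normal rats, red triangles for the 4 DN rats and black lines for the group means. Npas2, Arntl, Clock and Rora lie lower in the DN rats and Tef, Cry2, Per2, Per3, Nr1d1 and Dbp higher, without overlap, while Cry1, Nfil3 and Per1 overlap.

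Of 12 genes of the renin-angiotensin system, 0 were higher and 4 lower (33.3% called, beside 19.5% of all genes). With 1 rat left out between 2 (without normal rat 4) and 4 were called. Agtr1a, the receptor of angiotensin II, was at 59.4, 54.3, 54.4 and 57.7 CPM in the normal rats and at 32.7, 35.8, 41.2 and 37.6 CPM in the DN rats (log2 fold change -0.61, adjusted p = 0.00539). The spread within each group was small beside this difference. Lnpep and Atp6ap2, the prorenin receptor, fell with -0.68 and -0.28 (7 and 1 of the 8 fits).

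In the insulin, IGF and EGF axis, 2 of 25 genes were higher and 4 lower (24% called, beside 19.5% of all genes). There were 2 calls without normal rat 3 or 4 or DN rat 2. Igf1 was at 20.0, 13.3, 28.5 and 31.3 CPM in the normal rats and at 13.2, 7.74, 6.22 and 4.48 CPM in the DN rats (log2 fold change -1.55, adjusted p = 0.0194, 5 of the 8 fits). The binding proteins Igfbp3 and Igfbp4 fell with -0.78 and -1.43 and Igfbp1 rose with 0.78, called in 2, 1 and 1 of the 8 fits. Of 17 genes that respond to glucocorticoids, 2 were higher and 4 lower (35.3% called, beside 19.5% of all genes), so the list did not move one way. Klf9 fell from 35.1 ± 3.04 to 16.4 ± 3.32 CPM (mean ± SD, n = 4, log2 fold change -1.09, adjusted p = 0.00421) while Klf15 rose from 72.1 ± 9.94 to 117 ± 18.5 CPM (mean ± SD, n = 4, log2 fold change 0.71, adjusted p = 0.0128). Fkbp5 and Tsc22d3 had log2 fold changes of -0.95 and -0.72 but were called in 0 and 1 of the 8 fits.

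Of 19 genes of the p53 pathway and growth arrest, 6 were higher and 2 lower (42.1% called, beside 19.5% of all genes). With 1 rat left out 4 to 7 were called, with 4 without normal rat 1, 3 or 4 or DN rat 2. Phlda3, a p53 target that restrains AKT, was at 9.5, 11.5, 8.65 and 8.49 CPM in the normal rats and at 36.2, 29.1, 22.2 and 17.2 CPM in the DN rats (log2 fold change 1.46, SE 0.22, adjusted p = 0.00527). The kinase Plk2 rose with a log2 fold change of 1.27 and the stress cytokine Gdf15 with 1.01, and both were called with any rat left out. Cdkn1a, the inhibitor p21, rose with 0.89 (2 of the 8 fits), and Cdkn1c, at 108 CPM in DN rat 1 and 35.8 to 47.9 CPM in the other DN rats, with 1.25 (4 fits). Without DN rat 1, Cdkn1c had a log2 fold change of 0.80. Gadd45a fell with a log2 fold change of -0.75 (adjusted p = 0.00762).

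Among 25 cell cycle genes 2 were higher and 2 lower (16% called, beside 19.5% of all genes). There were 2 calls in each fit that left out a normal rat or DN rat 1 or 2. Ccnd1, cyclin D1, was at 99.1 to 153 CPM in the normal rats and 216 to 337 CPM in the DN rats (log2 fold change 1.17, adjusted p = 0.00524). Top2a, a topoisomerase of dividing cells, went the other way, with 1.74 to 2.76 CPM in the normal rats and 0.354 to 0.607 CPM in the DN rats (log2 fold change -2.22, adjusted p = 0.00421). Mki67 had a log2 fold change of -1.25 and was called in 0 of the 8 fits. Of 21 immediate early genes, 0 were higher and 5 lower (23.8% called, beside 19.5% of all genes). Nr4a1, a nuclear receptor induced within minutes of a stimulus, was at 16.6 to 37.6 CPM in the normal rats and 7.09 to 10.6 CPM in the DN rats (log2 fold change -1.62, adjusted p = 0.00669). Egr1 and Fos varied widely in the normal rats, from 7.07 to 85.4 and from 2.08 to 25.9 CPM, overlapped the DN rats and were called in 4 and 1 of the 8 fits. Jun fell with a log2 fold change of -0.52 (3 fits). The list had 1 call without normal rat 3, normal rat 4 or DN rat 2.

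Of 24 genes of the stress response of the endoplasmic reticulum and of heat shock, 0 were higher and 5 lower (20.8% called). The chaperone Hsph1 fell from 136 ± 9 to 96.7 ± 9.62 CPM (mean ± SD, n = 4, log2 fold change -0.48, adjusted p = 0.0134) and was called with any rat left out. Hspa8, Hsp90b1 and Canx fell with -0.47, -0.66 and -0.34 (3, 2 and 2 of the 8 fits), and with the length trend removed Canx had -0.18 (adjusted p = 0.182). Beside 19.5% of all genes the share was little higher, and there was 1 call without normal rat 1, 3 or 4 or DN rat 1.

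Genes of inflammation were called at shares below the 19.5% of all genes in the lists of interferon, chemokine and complement genes. Of 25 interferon-stimulated genes 0 were called by edgeR's quasi-likelihood test, with 2 at an unadjusted p under 0.05, 1 by DESeq2 and 0 by edgeR's exact test. The smallest adjusted p in that list were 0.0854 for Ifih1 and 0.0934 for Gbp2. Of 20 chemokine and NF-kB genes 1 was higher and 1 lower (10% called), Nfkb2 with a log2 fold change of 0.42 (2 of the 8 fits) and Cxcl12 with -0.52 (3 fits), and neither was called without DN rat 3. With the length trend removed Cxcl12 had -0.34 (adjusted p = 0.0822). Of 19 complement genes 0 were higher and 2 lower (10.5% called). Cd59, which shields cells from complement, was at 172 to 234 CPM in the normal rats and 90.2 to 112 CPM in the DN rats (log2 fold change -0.92, adjusted p = 0.00396), and C7 had a log2 fold change of -0.97 (4 of the 8 fits).

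In the JAK-STAT list 1 of 22 genes was higher and 4 lower (22.7% called, beside 19.5% of all genes). There were 0 calls without normal rat 3 or normal rat 4. Ghr, the growth hormone receptor, fell with a log2 fold change of -0.55 (5 of the 8 fits), the leptin receptor Lepr with -0.71 (3 fits), the cytokine receptor subunit Il6st with -0.38 (6 fits) and Socs5 with -0.42 (1 fit), while the kinase Tyk2 rose with 0.35 (2 fits). Of 19 leukocyte markers 0 were higher and 2 lower (10.5% called). RT1-Ba, a class II molecule, was at 73.0, 160, 61.8 and 106 CPM in the normal rats and 45.7 to 58.4 CPM in the DN rats (log2 fold change -1, 4 of the 8 fits), and Ptprc, the common leukocyte antigen CD45, fell with -0.81 (2 fits). The summed level of the leukocyte list was 857.4 to 1749 CPM in the normal rats and 781.8 to 985.2 CPM in the DN rats, with the highest value in normal rat 2. Without that rat 8 leukocyte genes were called, and without normal rat 4 or DN rat 1 or 2 there were 0. Over all 8 rats the list did not move one way, with 8 log2 fold changes above 0 and 11 below. The macrophage gene Csf1r, for example, was at 35.6, 63, 51.5 and 46.2 CPM in the normal rats and 54.1 to 72.9 CPM in the DN rats.

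**Figure D4:**
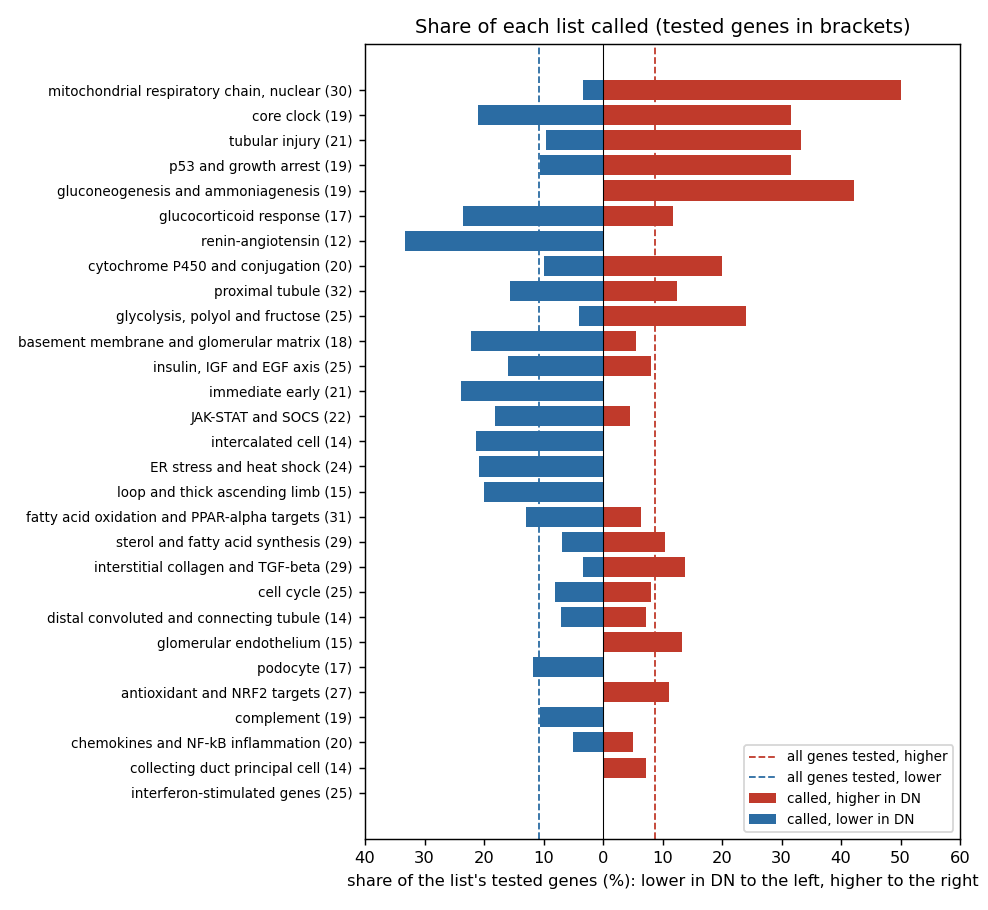
Share of the tested genes of each list (number tested in brackets) that were called higher in DN, in red to the right, or lower, in blue to the left. Dashed lines are the shares over all genes, 8.74% higher and 10.8% lower. The nuclear respiratory chain genes reach the largest share higher and the renin-angiotensin genes the largest share lower among these lists.

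Markers of other tissues were examined because pieces of the renal pelvis or surrounding tissue can come with a kidney. Of 9 tested markers of skeletal and smooth muscle 1 was higher, Myl9 (11.1% called, beside 19.5% of all genes). Myl9 had a log2 fold change of 1.08 (3 of the 8 fits), which was 0.78 without DN rat 3 (adjusted p = 0.0477). The median log2 fold change of the list was 1.01 with DN rat 3 and -0.27 without it. The summed level of the list was 598.3 CPM in DN rat 3 and 135.2 to 209.5 CPM in the other 7 rats, and the skeletal genes Myh7 and Mb were at 0 to 0.0931 CPM in all rats. Other skeletal genes were higher in DN rat 3, with Acta1 at 4.16 CPM against 0.0878 to 0.429 CPM and Ckm at 0.537 CPM against 0 to 0.202 CPM in the other rats. The smooth muscle myosin Myh11 was at 198 CPM in DN rat 3 and 22.7 to 56.6 CPM in the other rats. Its log2 fold change was 1.01 with DN rat 3 and -0.27 without it, and that of Actg2 was 3.12 and -0.76. Neither gene was called in either fit.

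Upk1a, a uroplakin, was at 37.8 CPM in DN rat 3, 19.6 CPM in normal rat 1 and 0.759 to 5.71 CPM in the other rats. Its log2 fold change was 0.65 with DN rat 3 and -1.51 without it, and it was called in neither fit. The members of the urothelial list with the most counts, Aqp3 and S100a6, which collecting ducts and other epithelia also express, were not called (adjusted p = 0.0928 and 0.187). Of 13 urothelial and squamous markers 0 were called by edgeR's quasi-likelihood test, with 1 at an unadjusted p under 0.05, 1 by DESeq2 and 0 by the exact test. Their median was 0.65 with DN rat 3 and -0.85 without it. Of 12 markers of fibroblasts and pelvic stroma, 2 were higher and 2 lower (33.3% called, beside 19.5% of all genes). These were Pdgfrb (log2 fold change 0.38) and Col1a1 against Dpt (-0.66) and Pdgfra (-0.41), called in 5, 4, 6 and 4 of the 8 fits. With the length trend removed Pdgfra was not called (log2 fold change -0.21, adjusted p = 0.0977). The list had 0 calls without normal rat 3 or normal rat 4, and its median was 0.29 with DN rat 3 and -0.12 without it. Of 6 erythroid markers 0 were higher and 1 lower (16.7% called), Alas2 (log2 fold change -1.50, 1 of the 8 fits), with 0 calls without DN rat 3. Of 3 adrenal markers only Scarb1, which the kidney also expresses, was called (33.3%, 1 fit). The adrenal genes Star and Nr5a1 were at 0 to 0.263 CPM.

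**Figure D5:**
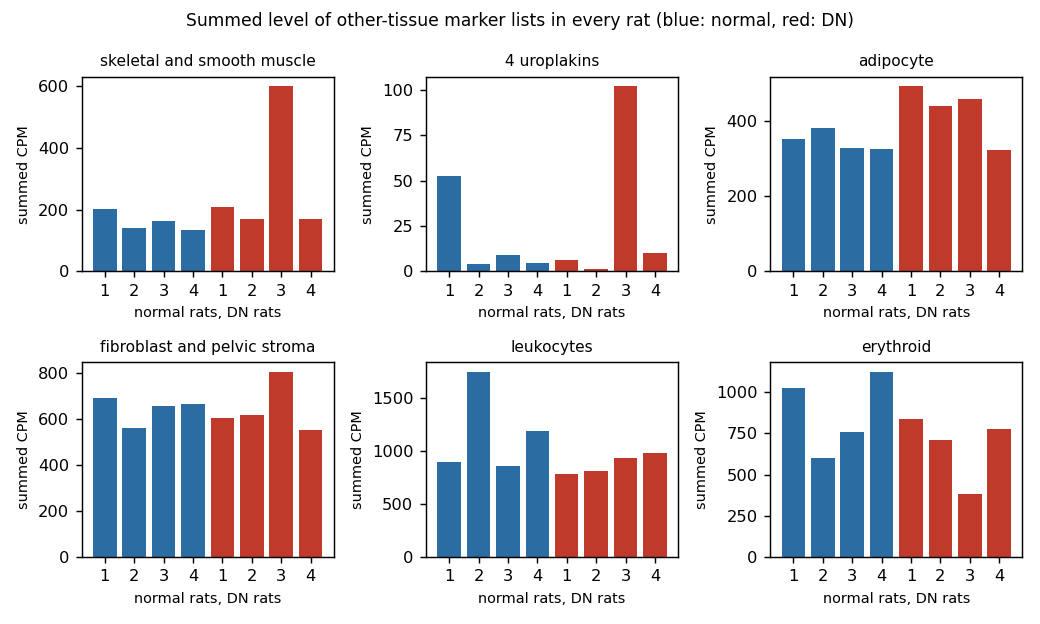
Summed CPM of 6 groups of marker genes of other tissues or cells in every rat, with blue bars for normal rats 1 to 4 and red bars for DN rats 1 to 4. DN rat 3 is the highest for muscle and, together with normal rat 1, for the 4 uroplakins, at 102 and 52.6 CPM, and normal rat 2 is the highest for leukocytes at 1749 CPM.

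The deposited table also lists assembled loci that carry no gene name. Of 1467 tested, 221 were called (15.1%, beside 19.5% of all genes), 41 of them higher (2.79%, beside 8.74%) and 180 lower (12.3%, beside 10.8%) in the DN group.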

How the data were processed

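The authors selected poly(A) RNA from renal tissue, sequenced it by Illumina and used TopHat to align reads to the genome of the rat after trimming. The submitters' processing notes also name Bowtie, RSEM and edgeR, without versions. The authors deposited estimated counts (expected counts) of 35849 genes and assembled loci per rat, without normalization. Values were rounded to whole counts, and 74.3% of those above 0 equalled a whole number exactly (tolerance 0). The table also holds columns of 4 libraries that no sample record names and pooled group means, and none of these were used.

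Counts were tested with edgeR 4.0.16 in R 4.3.3 by the two-sided quasi-likelihood test, with TMM normalization and genes kept by filterByExpr over the 8 rats. The Benjamini-Hochberg adjustment covered all tested genes. Nothing in the sources says how the rats were housed or how the RNA was batched, so p-values measure the spread between these rats only. CPM used TMM factors over all 16 rats. The steps were tested on simulated data. Alternatives were DESeq2 1.42.0, the exact test, RLE normalization, other filters, all 16 rats in one fit, a replicate block, a larger prior count (2), and fits without each rat. The fits with the length trend removed (offsets from a loess curve of each library) and without both DN rat 3 and normal rat 1 were added after the data were seen. Genes described are the 12 highest, 12 lowest and 12 smallest-p DEGs without overlap and with a gene name, up to 4 called members per list and direction, and others said to be chosen. Brms1l meets this rule but stands on several rows of the table and is not described. A few other genes that meet it are not reported here. The gene lists and genes were chosen with earlier results of these data known. Positions of genes on the genome used by the authors were not used here, and promoters were matched by symbol to RefSeq (GRCr8). The numbers of the replicates were not taken to pair rats in the main test.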

Additional observations from a re-analysis of the deposited data

Results flagged for a closer look

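In 23 of 392 groups of 4 rats examined, 1 rat lay so far from the other 3 that its gap exceeded the 95% limit of Dixon's test, and chance alone does this in about 1 of 20 groups. In the DN group, rat 1 stood apart for Hmox1 at 707 CPM, Eng at 258 CPM, Cry1 at 16.1 CPM and Cdkn1c at 108 CPM, all above the other rats, and for Fga at 22.4 CPM, Ghr at 75.9 CPM and Mki67 at 0.398 CPM, all below them. DN rat 2 stood apart for Aadat at 3280 CPM and Cd59 at 90.2 CPM. DN rat 3 stood apart for the muscle genes Actg2 at 101 CPM and Myh11 at 198 CPM and for the urothelial gene Upk1a at 37.8 CPM. DN rat 4 stood apart for Serpinb12 at 1.52 CPM, Cyp2c11 at 8.71 CPM and Rgn at 122 CPM, each above the other DN rats and so nearer to the normal group, and for Vim at 78.6 CPM.

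In the normal group, rat 1 stood apart for Aldoc at 1.02 CPM, Ifih1 at 4.38 CPM and Actg2 at 6.75 CPM, rat 3 for Mt1 at 224 CPM, Slc51a at 24.8 CPM and Fos at 25.9 CPM, and rat 4 for Lcn2 at 4.89 CPM. Hmox1 and Cdkn1c kept their direction without DN rat 1, with log2 fold changes of 1.19 and 0.80.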

How the results depend on the processing

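With all rats, the 599 DEGs became 488 to 745 and the 3074 called genes 2570 to 4198 under DESeq2, the exact test, RLE normalization, other filters, the larger prior count, TMM factors without muscle, urothelium and stroma genes, all 16 rats in one fit, or the length trend removed. With 1 rat left out there were 306 to 741 DEGs, 80 to 206 of them higher and 226 to 569 lower, and 769 to 3781 called genes, 305 to 1604 of them higher and 464 to 2177 lower. Fewer rats also mean less power. Without both DN rat 3 and normal rat 1, an alternative chosen after seeing the data, there were 360 DEGs (77 higher, 283 lower) and 928 called genes (379 higher, 549 lower).

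With the replicate number as a block there were 383 DEGs, 83 of them higher, and 1325 called genes, 521 higher and 804 lower, of which 1301 were also called without the block. Same-numbered rats deviated from their group means with correlations of -0.25, 0.04, -0.00 and -0.02, and the numbers were not taken to pair rats. These values cannot settle whether they do. Of 176 called genes described above, 103 kept their call in the 10 alternatives with all rats and 74 in all 19 alternatives, and 0 changed direction. The cause of lost calls was not tested. Depth limits the genes at a few counts, such as Ptprq, whose size of change is uncertain.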
